A study of Mus musculus with 4 samples.

Results

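IL-10+ regulatory T (Treg) cells are the cells that the study's authors labelled IL10+ Treg in T cells sorted from mouse AKP colorectal tumors and from the adjacent tumor-free cecum. The label was carried by 1383 of 15621 labelled cells, 996 of 7155 in the cecum and 387 of 8466 in the tumor, and all of them were taken. AKP tumors grow from mouse intestinal cancer organoids that lack Apc and Trp53, implanted in the wall of the cecum, and tissues were taken 4 weeks later. Sorted cells were lysed to nuclei and put through a 10x multiome assay, which reads nuclear RNA and ATAC fragments (DNA cut out of open chromatin by a transposase) together in each nucleus. Of these, the fragments of 1 cecum and 1 tumor library were used here. The authors set the labels by clustering the RNA of these nuclei and called the Treg clusters IL-10+ or IL-10- from Il10 RNA. The values at Il10, and at the marker genes Foxp3, Maf and Ctla4, are therefore a description and no evidence for the label. Both tissues came from animals that bore a tumor, so the cecum is adjacent tissue and not a healthy control. The strain, age and number of the animals behind each library are not given in the sources used here, and a library may hold pooled animals.

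Treg cells are CD4+ T cells that depend on the transcription factor Foxp3 and keep other immune cells in check. In the gut many of them arise in response to the microbiota, express c-Maf, and release the cytokine IL-10, which restrains inflammation at the mucosa. ATAC fragments show where chromatin is open, not how much RNA or protein is made from it.

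IL-10+ Treg cells gave 5709704 fragments in cecum and 2727884 in tumor tissue. The median cell held 4083 fragments in cecum (quartiles 1717 and 8165) and 5479 in tumor tissue. No labelled barcode was an IL10+ Treg cell in both libraries, though 10 cecum and 1 tumor barcodes of these cells were also labelled in the other library. Levels are fragments with an end within 5 kb of the gene span, per 1000000 fragments of the label (FPM), and since windows differ in length they are compared between labels and not between genes. Each level was set against the mean level of 11 background labels, the CD8, γδ, innate-like and remaining CD4 labels, with Th17, Rorgt gdT, Mucosal Th1 and IL10- Treg kept out so that sharing with them could be counted. The label PD1+ CD4 was left out, since the cecum library held only 14 such cells (616 in the tumor library), and statements on all labels cover the 16 labels compared. A gene was called when the log2 ratio, with 1 FPM added to both sides, reached 1 (2-fold) in the cecum and again in the tumor. Each tissue had 1 library, so no test was made, no p-value is given, and tissue and library cannot be told apart. Intervals are exact, at 95%, and cover counting error only. Those of tumor to cecum ratios belong to the ratio without the added 1 FPM, whereas the printed ratio includes it. Where a pair of values is given, the cecum comes first.

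The 4 marker genes of these cells were all open, and Foxp3 set the Treg labels apart from every other label. Foxp3 stood at 102 FPM in the cecum (95% interval 93.6 to 110, from 581 fragments) and 79.2 FPM in the tumor (69.0 to 90.5, from 216 fragments). IL10- Treg cells were level with them at 97.3 and 76.0 FPM, whereas the highest of the background labels had 45.3 FPM in cecum and 46.4 FPM in tumor tissue. Il10, the gene of the cytokine that names these cells, stood at 153 and 146 FPM, and the background labels reached at most 71.5 and 76.3 FPM. IL10- Treg cells had 79.3 and 55.1 FPM there. Maf, which encodes c-Maf, was at 130 and 145 FPM, but Tfh-like cells had 139 FPM in the cecum and Th2 cells 132 FPM in the tumor, so Maf did not set these cells apart from the helper labels. Its log2 ratio of 1.02 and 1.13 was 0.33 and 0.44 when only the 4 CD4 labels were the background. Ctla4, an inhibitory receptor of Treg and activated T cells, was at 160 and 135 FPM, next to 130 and 118 FPM in Tfh-like cells, and with a log2 ratio of 1.20 in cecum and 0.93 in tumor tissue it was not called. At these sparse counts 37.3% of the cells from the cecum and 35.1% of those from the tumor had any fragment at Foxp3. Markers of cells that the sort should remove were no higher than in the other labels. The summed level of 6 B cell markers was 149 and 155 FPM, when the other labels ranged from 137 to 226 FPM in the cecum and from 141 to 207 FPM in the tumor. For 6 myeloid markers the sums were 83.7 and 93.5 FPM, and for 10 epithelial markers 103 and 102 FPM, both near the low end of the other labels. No marker of the 3 lists was at 0 in either library, and their part in the results was not tested.

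**Figure D1:**
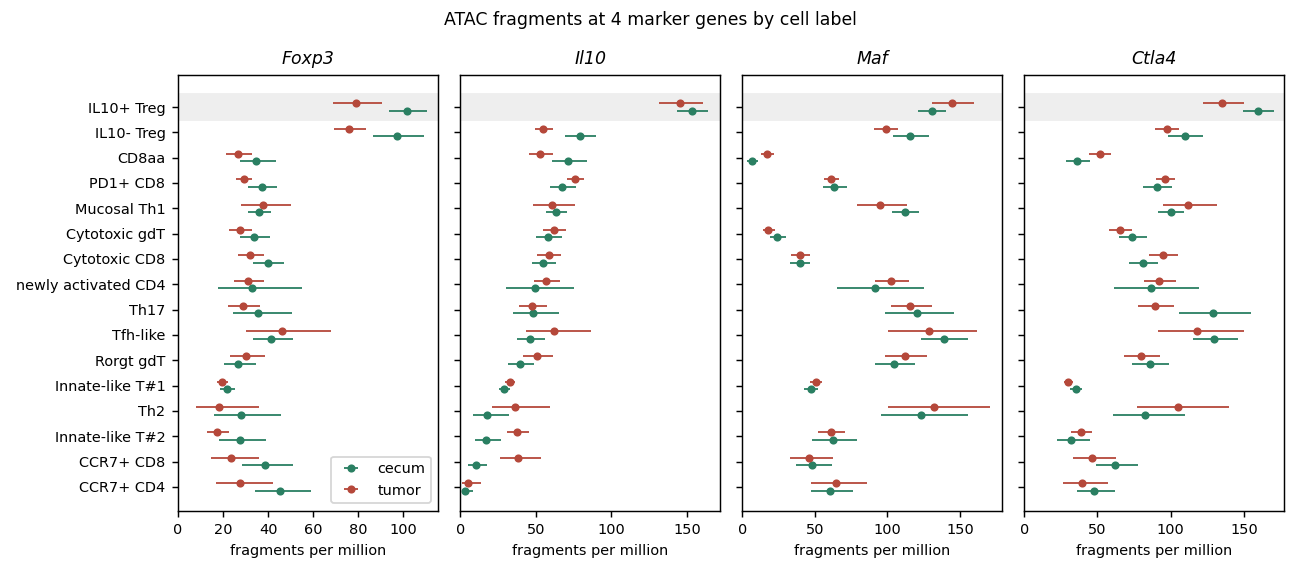
Level of ATAC fragments (FPM, x axes) at Foxp3, Il10, Maf and Ctla4 in 16 cell labels (rows) of the cecum (green) and tumor (red) library. Points are the level of a label and bars its exact 95% counting interval. In the shaded row IL-10+ Treg cells stand level with IL10- Treg cells at Foxp3 (102 against 97.3 FPM in the cecum), above all labels at Il10 (153 and 146 FPM), and among the CD4 labels at Maf.

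The start sites of 6 genes open in these cells are printed here as examples of Treg genes and of genes of type 17 cells (cells that make IL-17). They were chosen after their values were seen. Each is the RefSeq promoter (GRCm38.p6), 250 bases before to 50 after a start, written 5′ to 3′ on the strand of the gene. The motifs searched, on both strands, were the ROR motif TAGGTCA, the AP-1 motif TGANTCA, the forkhead motif TGTTTAC, the MAF motif TGCTGAC, the T-box motif GGTGTGA, the NR4A motif AAAGGTCA, which can overlap the ROR motif, and the GATA factor motif AGATAA, and capitals mark each match. A match shows only that these letters are present. Foxp3 and Ccr6 each have a further listed start, not printed here, that holds the GATA factor motif.
Foxp3, chrX:7579426-7579725, + strand, no match: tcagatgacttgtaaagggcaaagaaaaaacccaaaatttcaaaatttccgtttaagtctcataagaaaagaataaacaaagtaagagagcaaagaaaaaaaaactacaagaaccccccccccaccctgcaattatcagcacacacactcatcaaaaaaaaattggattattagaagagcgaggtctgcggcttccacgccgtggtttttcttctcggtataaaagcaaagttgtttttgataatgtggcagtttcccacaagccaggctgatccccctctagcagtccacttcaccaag
Tnfrsf13b, chr11:61126505-61126804, + strand, MAF motif on the opposite strand: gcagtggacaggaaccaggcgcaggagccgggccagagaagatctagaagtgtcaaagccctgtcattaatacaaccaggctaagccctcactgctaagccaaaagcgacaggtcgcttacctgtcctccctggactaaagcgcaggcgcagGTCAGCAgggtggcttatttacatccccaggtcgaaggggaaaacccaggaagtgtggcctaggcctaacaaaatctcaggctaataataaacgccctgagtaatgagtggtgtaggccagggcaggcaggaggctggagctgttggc
Il23r, chr6:67491806-67492105, - strand, ROR and MAF motifs: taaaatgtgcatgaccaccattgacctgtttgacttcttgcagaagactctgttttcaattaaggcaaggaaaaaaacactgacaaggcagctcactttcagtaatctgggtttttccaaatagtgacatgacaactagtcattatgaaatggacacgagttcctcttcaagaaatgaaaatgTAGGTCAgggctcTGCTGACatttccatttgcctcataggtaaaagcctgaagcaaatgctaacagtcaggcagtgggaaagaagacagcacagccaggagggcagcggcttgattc
Il17a, chr1:20730655-20730954, + strand, AP-1 and MAF motifs: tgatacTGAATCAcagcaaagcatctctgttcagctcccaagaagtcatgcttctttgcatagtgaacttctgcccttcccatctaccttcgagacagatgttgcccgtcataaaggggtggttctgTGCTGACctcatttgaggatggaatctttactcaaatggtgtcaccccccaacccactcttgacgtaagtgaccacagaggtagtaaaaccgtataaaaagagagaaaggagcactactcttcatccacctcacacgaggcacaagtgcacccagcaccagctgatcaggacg
Ccr6, chr17:8235793-8236092, + strand, MAF motif and, on the opposite strand, ROR motif: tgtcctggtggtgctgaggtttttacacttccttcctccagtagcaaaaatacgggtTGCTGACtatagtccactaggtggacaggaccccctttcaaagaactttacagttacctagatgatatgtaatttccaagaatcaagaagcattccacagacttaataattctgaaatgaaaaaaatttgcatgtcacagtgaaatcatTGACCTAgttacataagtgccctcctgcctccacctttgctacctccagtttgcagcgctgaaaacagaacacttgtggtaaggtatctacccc
Daw1, chr1:83159505-83159804, + strand, motif of GATA factors: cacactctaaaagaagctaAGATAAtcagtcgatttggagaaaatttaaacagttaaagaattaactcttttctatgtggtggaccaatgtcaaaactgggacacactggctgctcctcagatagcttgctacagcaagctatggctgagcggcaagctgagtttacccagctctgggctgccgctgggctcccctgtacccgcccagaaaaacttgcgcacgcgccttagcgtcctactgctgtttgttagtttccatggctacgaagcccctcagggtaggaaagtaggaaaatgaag

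Foxp3 and Tnfrsf13b, which encodes the TNF family receptor TACI, had starts open in the Treg labels. The Foxp3 start held 9.63 FPM in cecum and 6.97 FPM in tumor IL-10+ Treg cells and 10.0 and 8.44 FPM in IL10- Treg cells, against 0 and 0.427 FPM in Th17 cells. The Tnfrsf13b start held 6.83 and 6.60 FPM, with 4.999 and 3.96 FPM in IL10- Treg cells and 0 in Th17 cells of both libraries. At the start of Il23r, the receptor that lets cells respond to IL-23, the order turned: IL-10+ Treg cells had 5.95 and 10.6 FPM, Th17 cells 17.2 and 10.3 FPM, Rorgt gdT cells 17.1 and 13.2 FPM, and IL10- Treg cells only 1.33 and 1.55 FPM. The start of Il17a, the type 17 cytokine itself, was open at 9.81 FPM in cecum and 4.03 FPM in tumor tissue, well under the 41.3 and 31.6 FPM of Th17 cells, and IL10- Treg cells had 0.666 and 0.345 FPM. In the tumor this start was within the background labels, of which the highest had 6.83 FPM. The Ccr6 start was less selective, at 3.503 and 3.67 FPM, with a background label at 7.03 FPM in the cecum. The Daw1 start held 4.73 and 4.399 FPM, more than in Th17 cells (0 and 2.99 FPM), and the highest background label had 0.469 FPM in cecum and 0 in tumor tissue. Of the 142 genes called higher (below), 102 had a promoter in the RefSeq table, 131 promoters in all, and 34 of the 131 windows had a log2 ratio of at least 1 in both libraries. The MAF motif was in 10.7% of these against 3.90% of the 15209 promoters of all 14976 genes compared, and 4.30% of all 21263 promoters in the table. For the ROR motif the shares were 3.05% against 1.97% and 2.32%, for forkhead 2.29% against 2.58% and 3.01%, for T-box 3.05% against 3.45% and 3.68%, and for NR4A 0.763% against 1.08% and 1.30%. AP-1 (6.87% against 5.54% and 6.99%) and the GATA factor motif (9.16% against 6.996% and 9.65%) were above the first share and below the second. For the MAF motif that is 14 promoters, and these shares are descriptions.

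Across the genome few genes stood apart in IL-10+ Treg cells. Of 14976 genes with a mean level of at least 5 FPM over the labels, 142 (0.948%) were called higher than the background labels and 407 (2.72%) lower. That mean included IL-10+ Treg cells, so a gene low in the other labels could pass through their level alone. In both libraries 111 of the 142 were above each of the 11 background labels, and in 52 IL-10+ Treg cells were the highest of the 16 labels. The same held for 484 and 248 of all 14976 genes. Counted within 1 kb of gene starts alone, 54 genes were higher and 174 lower. Against the 4 CD4 background labels alone (CCR7+ CD4, Tfh-like, Th2 and newly activated CD4), an alternative chosen after seeing the data, 123 genes were higher, and 80 of the 142 were among them.

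Daw1, a gene best known from the assembly of motile cilia, led the ranking. With IL-10+ Treg cells left out of the mean over labels, it would have missed the minimum level. It was at 55.7 FPM in cecum and 45.1 FPM in tumor tissue, and no background label went beyond 2.81 FPM, a log2 ratio of 4.73 and 4.396. Th17 cells followed at 14.9 and 20.5 FPM and Rorgt gdT cells at 8.79 and 7.53 FPM, while IL10- Treg cells had 2.67 and 4.13 FPM. Ccl20, a neighbour of Daw1 that encodes the ligand of the chemokine receptor CCR6, had too few fragments over all labels to be counted among the 14976 genes, yet IL-10+ Treg cells were at 29.6 and 21.6 FPM there and Th17 cells at 20.7 and 20.1 FPM, with no background label over 3.75 and 7.13 FPM. BC053393 came next at 97.4 and 83.2 FPM (log2 ratio 3.64 and 3.55), and here Th17 (72.3 and 86.8 FPM), Rorgt gdT (87.4 and 73.4 FPM) and IL10- Treg cells (73.6 and 62.4 FPM) were all high. Such a gene marked the 4 labels together and none of them alone. Ppp1r14c, an inhibitor of protein phosphatase 1, was at 55.9 and 55.7 FPM. Rorgt gdT cells had more, 108 and 104 FPM, and IL10- Treg cells were inside the background at 4.67 and 6.20 FPM.

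Adam12 and Adamts16, which encode metalloproteases, had log2 ratios of 3.02 and 4.00 and of 2.94 and 3.17. Adam12 was highest in Rorgt gdT cells (73.5 and 99.7 FPM against 58.0 and 88.7 FPM in IL-10+ Treg cells), and Adamts16 in Th17 cells (108 and 91.0 FPM against 41.5 and 61.6 FPM). Nckap5, at 254 and 283 FPM, followed the Treg labels. IL10- Treg cells had 232 and 158 FPM, and Th17 cells 85.0 and 55.1 FPM. Cc2d2a (80.7 and 61.6 FPM) and the linker histone gene H1f8 (20.5 and 26.4 FPM) were shared by both Treg labels and Rorgt gdT cells, and not called in Th17 cells. Within 1 kb of its start alone Cc2d2a was at a log2 ratio of -0.33 in the cecum. Matn2, for a matrix protein, was highest in IL-10+ Treg cells of both libraries at 109 and 110 FPM, with a log2 ratio of 2.58 and 2.68. Mybph closed the leading 10 at 19.8 and 45.1 FPM, and its window overlaps that of Adora1, an adenosine receptor gene, so their fragments cannot be told apart.

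Many of the 142 genes were shared with Th17, Rorgt gdT or IL10- Treg cells. Th17 cells had 146 called genes of their own (0.975% of those described), and 66 of the 142 were among them, 46.5% of the IL-10+ Treg genes and 45.2% of the Th17 genes. Rorgt gdT cells had 273 (1.82%) and shared 57, 40.1% of the IL-10+ Treg genes and 20.9% of their own. IL10- Treg cells had 172 (1.15%) and shared 68, 47.9% and 39.5%. All these comparisons use the same background labels, so the counts are not independent of each other, and they are given as descriptions. Sorted by kind, 37 genes (26.1%) were shared with Th17 or Rorgt gdT cells and not with IL10- Treg cells, 26 (18.3%) with IL10- Treg cells alone, 42 (29.6%) with both kinds and 37 (26.1%) with none of the 3 labels. Over the 142 genes the median log2 ratio was 1.08 in cecum and 1.13 in tumor tissue for Th17 cells, 1.08 and 1.16 for IL10- Treg cells, and 0.79 and 1.10 for Rorgt gdT cells. Th2 and Tfh-like cells, which are among the background labels and therefore at a disadvantage in this count, shared 19 and 17.

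Receptors were among the genes shared with both type 17 labels. Ccr6, the receptor of Ccl20, was at 62.3 and 73.3 FPM (log2 ratio 2.25 in both), between Th17 (90.7 and 97.9 FPM) and Rorgt gdT cells (38.4 and 60.7 FPM). IL10- Treg cells shared it at 54.7 and 58.6 FPM. Il1r1, the receptor of IL-1, was at 82.5 and 95.3 FPM, less than the 212 and 192 FPM of Th17 and the 279 and 275 FPM of Rorgt gdT cells, while IL10- Treg cells (23.0 and 27.2 FPM) were at the mean of the background labels. Against the 4 CD4 labels Ccr6 was still called (1.81 and 1.76), and Il1r1 was not (0.83 and 0.93).

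Levels at the cytokine genes of type 17 cells were lower in IL-10+ Treg cells than in the cells known for making them. Il17a stood at 23.5 FPM in cecum and 13.6 FPM in tumor tissue, against 82.7 and 68.0 FPM in Th17 cells and 39.3 and 72.4 FPM in Rorgt gdT cells. It was called (log2 ratio 2.53 and 1.63), but in the tumor a background label reached 22.8 FPM, so there the levels overlapped, and it was not called against the 4 CD4 labels. Il17f was at 10.2 and 4.77 FPM and was not called. At Il23r as a whole the level of 54.5 and 67.5 FPM was not called either (0.81 and 1.18), with Th17 cells at 181 and 117 FPM and Rorgt gdT cells at 206 and 184 FPM. Trdc, the constant segment of the δ chain and the defining gene of γδ T cells, was near 0 in IL-10+ Treg cells, at 1.23 and 0.733 FPM from 7 and 2 fragments, against 48.6 and 40.5 FPM in Rorgt gdT cells. With the cells left out that held over 3 times the median number of fragments, 57 of the 66 genes shared with Th17 cells remained shared. That filter keeps doublets under this limit and single mislabelled cells. Whether Th17 cells or doublets among the cells labelled IL10+ Treg added to these values was not tested.

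**Figure D2:**
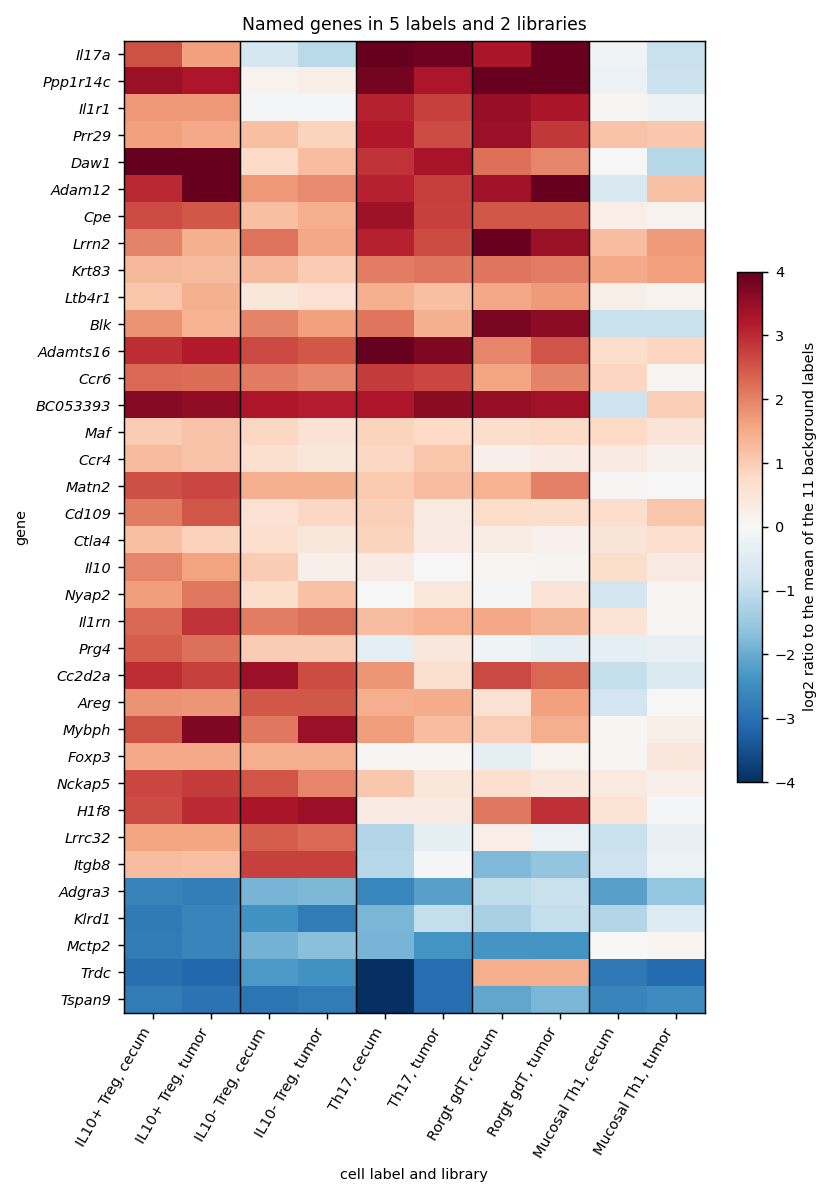
Log2 ratio of the level (FPM + 1) to the mean of the 11 background labels (colour, from -4 in blue to 4 in red, values beyond drawn at the ends) for the named genes (rows) in 5 labels and both libraries (columns). The IL-10+ Treg columns hold the red of the type 17 labels in the upper rows (Il1r1 1.72 and 1.74, Ppp1r14c 3.46 and 3.25) and the red of the IL10- Treg label in the lower rows (Foxp3 1.53 and 1.51, Lrrc32 1.58 and 1.58), and the Mucosal Th1 columns are mostly pale.

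Among the 26 genes shared with IL10- Treg cells and not with the type 17 labels were Foxp3, Lrrc32 and Itgb8. Lrrc32, which encodes the latent TGF-β anchor GARP, was at 36.8 FPM in cecum and 43.3 FPM in tumor tissue, above all background labels but below the 66.6 and 70.3 FPM of IL10- Treg cells. Itgb8, an integrin chain that releases active TGF-β, stood at 39.9 and 41.4 FPM against 115 and 123 FPM in IL10- Treg cells, and single background labels reached 66.1 and 46.4 FPM, so it was called on the mean and overlapped them. Areg, the tissue repair factor amphiregulin, was likewise higher than the mean of the background (30.8 and 29.3 FPM, log2 ratio 1.80 and 1.78) and lower than in IL10- Treg cells (50.7 and 48.9 FPM). Th17 cells shared Areg, and single background labels reached 40.4 and 43.3 FPM.

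Mucosal Th1 cells, the most numerous CD4 label of the cecum after IL-10+ Treg cells, had few called genes to share. They had 13 (0.0868%), of which 3 were shared, 2.11% of the IL-10+ Treg genes and 23.1% of their own, a share of their own near that of Rorgt gdT cells: Krt83, Lrrn2 and Prr29. All 3 were higher in Th17 and Rorgt gdT cells than in either. Krt83, a keratin gene, was at 30.1 and 34.5 FPM in IL-10+ Treg and 35.3 and 44.8 FPM in Mucosal Th1 cells, within background labels that went up to 39.8 and 42.0 FPM. Lrrn2 stood at 31.5 and 23.5 FPM and likewise overlapped the background (up to 38.7 and 29.6 FPM), while Prr29, at 21.0 and 22.4 FPM, did not (up to 14.1 and 18.2 FPM). Over the 142 genes the median log2 ratio of Mucosal Th1 cells was 0.05 in cecum and 0.16 in tumor tissue. Set against the 4 CD4 labels alone 12 genes were shared with Mucosal Th1 cells and none of these 3 was among them.

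A small group of loci was open above all in IL-10+ Treg cells. In 7 genes (0.0467%) their level was at least 1.5 times that of the next of the 16 labels in both libraries, namely Prg4, Cd109, Daw1, Nyap2, Il10, Fmnl2 and Matn2. With fragments counted only within 1 kb of the gene start, 1 gene met this rule. Prg4, for the lubricating glycoprotein lubricin, was at 37.3 and 35.6 FPM, with Tfh-like cells next at 15.9 FPM in the cecum and IL10- Treg cells at 15.2 FPM in the tumor. Cd109, a membrane protein that binds TGF-β, was at 36.4 and 52.1 FPM against at most 16.1 and 21.4 FPM elsewhere. Nyap2 stood at 47.3 and 47.7 FPM, followed by IL10- Treg cells at 23.3 and 24.3 FPM, and near its start alone the log2 ratio turned to -0.25 in the tumor. Fmnl2, a formin that shapes the actin skeleton, was at 157 and 132 FPM against at most 84.7 and 82.4 FPM.

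**Figure D3:**
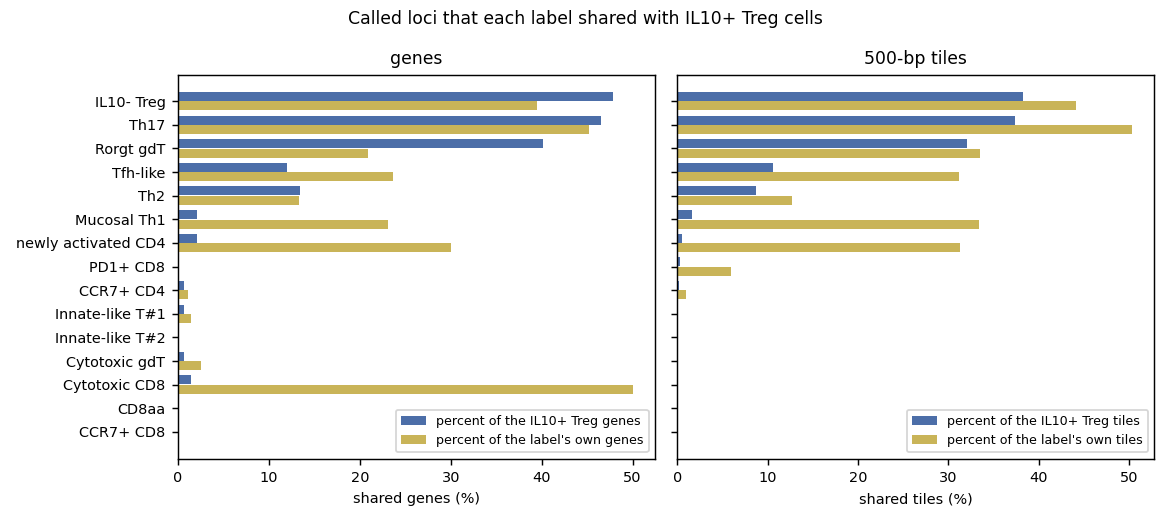
Share of called genes (left) and of called 500-bp tiles (right) that each label (rows) had in common with IL-10+ Treg cells, as a percent of the IL-10+ Treg loci (blue) and of the label's own loci (yellow). IL10- Treg, Th17 and Rorgt gdT cells shared 47.9, 46.5 and 40.1% of the IL-10+ Treg genes and Mucosal Th1 cells 2.11%, and the yellow bar of Cytotoxic CD8 cells rests on 4 called genes.

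Gene lists drawn from the biology of these cells differed in how far they stood apart. Over all 14976 genes the median log2 ratio was -0.03 in cecum and -0.05 in tumor tissue. Of these genes 0.948% were called higher and 2.72% lower, the shares to set beside the counts of each list. The type 17 list, 17 genes with enough fragments, had a median of 0.85 and 0.91, with 6 called higher (among them Il17a, Ccr6, Il1r1, Blk and Ltb4r1) and 1 lower. Against the 4 CD4 labels 4 were called higher, among them Ccr6, Blk and Il23r (1.24 and 1.61), and none lower, while Il17a, Il1r1 and Ltb4r1 (0.95 and 1.68 for the last) were not called. The gene lower against the 11 background labels was Kit, a growth factor receptor, at 12.6 and 16.9 FPM against a background mean of 48.7 and 50.1 FPM that single labels undercut (2.22 and 6.67 FPM). In the 20 genes of the Treg core list the median was 0.57 and 0.48 and 2 were called higher, Foxp3 and Lrrc32. Icos, a costimulatory receptor, was highest in these cells of all labels but passed a ratio of 1 in the tumor (1.12) and not in the cecum (0.98). Il2ra, a chain of the IL-2 receptor (0.27 and 0.29) and Ikzf2 (-0.14 and 0.11), the gene of Helios, stayed near the background. Of 20 effector and suppressor genes 3 were called higher, Il10, Maf and Il1rn, and 1 lower, with a median of 0.41 and 0.46. The regulators Prdm1 (225 and 229 FPM) and Batf (170 and 177 FPM) were highest in IL-10+ Treg cells too, but by little, with log2 ratios of 0.32 and 0.39 and of 0.80 and 0.76. Il1rn, which encodes the antagonist of the IL-1 receptor, was highest in these cells of all labels, 17.9 FPM in cecum and 34.1 FPM in tumor tissue against at most 4.22 and 9.11 FPM in the background.

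The effector gene called lower was Gzma, a granzyme of cytotoxic cells, at 4.55 and 8.06 FPM against 35.9 and 42.2 FPM. Gzma was no longer called against the 4 CD4 labels (-0.83 and -0.92). There 5 of the effector and suppressor genes were called higher and none lower. Gzmb, a granzyme that Treg cells can also use, had log2 ratios of 0.33 and 0.41 against all background labels and of 2.04 and 2.07 against the 4 CD4 labels. The type 1 list, 18 genes around interferon γ, lay below the background with a median of -0.68 and -0.77, and 6 of its genes were called lower (Ifng, Il12rb2, Nkg7, Ccl3, Ccl4, Ccl5) and none higher. Tbx21, the regulator of type 1 cells, was at 50.3 and 39.6 FPM against 96.9 and 98.1 FPM (-0.93 and -1.29). Ccl5, a chemokine of cytotoxic and memory cells, was at 7.53 and 18.0 FPM against 70.6 and 73.9 FPM. Much of the background is CD8 and γδ cells, and against the 4 CD4 labels the median was -0.14 and -0.37, with 1 gene called higher and none lower. Among 14 genes of the T cell receptor response 1 was called, Nr4a2, an orphan nuclear receptor, with IL-10+ Treg cells the lowest of the 16 labels in both libraries (26.4 and 27.9 FPM, when the lowest background label had 60.9 and 57.5 FPM). Nr4a1 (0.06 and -0.08) and Nr4a3 (-0.15 and -0.14) were near 0 in their log2 ratios.

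Homing genes included 2 called higher of 20, Ccr6 and Ccr4, where 0.948% of all genes were called higher and 2.72% lower. Ccr4, a receptor of memory and Treg cells, was highest in IL-10+ Treg cells at 86.7 and 86.5 FPM, though in the tumor Th17 cells had 84.2 FPM, and it was not called against the 4 CD4 labels (0.55 and 0.53). The gut-homing receptor gene Ccr9 was at 34.0 and 49.5 FPM, with ratios of 0.31 and 1.03. Of 14 genes of Helios+ Treg cells and tissue repair 2 were called, Areg and Itgb8, and with a median of 0.16 and 0.20 the list stood well under its 1.08 and 0.98 in IL10- Treg cells. Neither was called against the 4 CD4 labels (0.69 and 0.66 for Areg, 0.64 and 1.04 for Itgb8), where 1 gene of the list, Pparg, a nuclear receptor of Treg cells in fat, was called lower (-1.49 and -1.13). Of 12 TGF-β genes Itgb8 and Lrrc32 were called higher and Tgfbr3 lower (46.4 and 60.9 FPM against 125 and 124 FPM). Among 10 genes that sense ligands 1 was called higher and none lower, and the receptor gene Ahr, which detects dietary and microbial compounds, stood at 0.45 and 0.50. None of 12 naive and circulation genes was called, and their median was -0.44 in cecum and -0.20 in tumor tissue.

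The leading genes lower in IL-10+ Treg cells were, besides Trdc (log2 ratio -3.02 and -3.15), Tspan9 (21.4 and 19.1 FPM against 154 and 155 FPM), Adgra3 (1.051 and 1.10 FPM against 12.2 and 13.2 FPM), Mctp2 (22.6 and 25.3 FPM against 164 and 162 FPM) and Klrd1, a receptor chain of natural killer and CD8 cells (3.503 and 4.77 FPM against 30.9 and 34.6 FPM). Mctp2 was the lowest of the 16 labels in both libraries. Tspan11, whose window overlaps that of Tspan9, and Klre1, whose window overlaps that of Klrd1, were lower as well. With the CD4 labels as background Klrd1 (-0.76 and -1.34), Klre1 (-0.77 and -0.79) and Tspan11 (-0.32 and -0.11) were no longer called. Trdc (-1.66 and -1.91), Tspan9 (-1.56 and -1.84), Adgra3 (-1.60 and -2.11) and Mctp2 (-2.07 and -2.06) still were.

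Resolved in tiles of 500 bp, called loci lay mostly away from gene starts. Of 87695 tiles with a mean of at least 2 FPM, 984 (1.12%) had a log2 ratio of at least 1.5 in both libraries, in 790 runs of adjacent tiles. That mean included IL-10+ Treg cells, so tiles open mainly in them could enter the set through their own level. The shares below are descriptions of the tiles so chosen. With 3 FPM added in place of 1 there were 421, and with a minimum of 5 FPM 314, and the tiles shared with Th17 cells ranged from 119 to 643 over the settings tried. Tiles within 1 kb of a gene start (of either gene end where no start is listed) were 7.52% of the called tiles against 43.6% of all tiles, tiles elsewhere within genes 47.8% against 33.9%, and tiles between genes 44.7% against 22.5%. The gene table holds no exons, so whether a tile within a gene is exonic or intronic is not stated. Th17 cells, with 732 called tiles (0.835%), shared 368, which is 37.4% of the IL-10+ Treg tiles and 50.3% of their own. IL10- Treg cells with 853 (0.973%) shared 376 (38.2% and 44.1%), Rorgt gdT cells with 941 (1.07%) shared 315 (32.0% and 33.5%), and Mucosal Th1 cells with 48 (0.0547%) shared 16 (1.63% and 33.3%). The share of the IL-10+ Treg loci was thus lower than in genes and the share of each partner's own loci higher, though tiles were called at a larger ratio than genes. Of the 984 tiles 331 (33.6%) were shared with none of Th17, Rorgt gdT and IL10- Treg cells, compared with 26.1% of genes.

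The leading tile, chr1:83138001-83138500 (mm10), lies between genes, 19.1 kb from Ccl20 and 21.5 kb from Daw1. It held 30.6 FPM in cecum and 26.4 FPM in tumor IL-10+ Treg cells and 33.3 and 29.5 FPM in Th17 cells, with 12.9 and 7.06 FPM in Rorgt gdT cells. IL10- Treg (1.33 and 1.38 FPM) and Mucosal Th1 cells (1.33 and 0.772 FPM) were no higher than background labels, which went up to 2.34 and 3.34 FPM. A tile in Cradd, chr10:95210001-95210500, was also open in IL-10+ Treg (25.2 and 19.1 FPM) and Th17 cells (18.4 and 15.8 FPM). Rorgt gdT cells shared it at 6.47 and 8.47 FPM, and IL10- Treg cells had 0.9997 and 1.89 FPM. A tile in Map3k4, chr17:12275501-12276000, was highest in IL-10+ Treg cells at 34.7 and 40.7 FPM. Th17 cells had 8.04 and 17.5 FPM, Rorgt gdT cells 6.94 and 12.2 FPM and IL10- Treg cells 3.33 and 13.4 FPM. The tile chr14:51870501-51871000, between Mettl17 and Ear6, followed the Treg labels at 32.8 and 36.7 FPM, with 10.3 and 16.0 FPM in IL10- Treg cells. Another near Ky, chr9:102502001-102502500, did so with the order turned, 20.3 and 19.1 FPM against 54.3 and 35.1 FPM in IL10- Treg cells.

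Around Foxp3 (chrX:7579676-7595243) 5 of 20 tiles within 50 kb were called, and they differed in the labels that shared them. IL10- Treg cells shared 2, Rorgt gdT cells 2 and Th17 cells 1. The strongest, 4.6 kb inside the gene at chrX:7584001-7584500, held 29.2 and 20.5 FPM in IL-10+ Treg and 25.99 and 17.05 FPM in IL10- Treg cells. Th17 cells had 1.15 and 1.71 FPM, Rorgt gdT cells 0 and 1.41 FPM and the background labels at most 4.69 and 3.57 FPM. A tile 11.9 kb before the gene, inside its neighbour Ppp1r3f, had another pattern. IL-10+ Treg cells had 33.8 and 33.0 FPM there, Rorgt gdT cells 25.9 and 25.4 FPM, Th17 cells 34.4 and 12.8 FPM and IL10- Treg cells 18.995 and 15.3 FPM, with a background label at 34.2 FPM in the tumor. Another tile, 5.4 kb before the gene, was open in all labels, at 44.5 and 37.0 FPM here and a background mean of 33.3 and 36.2 FPM.

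Il10 (chr1:131019845-131024970) was the nearest gene of more called tiles than any other except Wwox, and few were shared. Of 28 tiles within 50 kb 10 were called in IL-10+ Treg cells, 2 in Th17 cells, 1 in IL10- Treg cells and 0 in Rorgt gdT and Mucosal Th1 cells. The tile at the start of the gene held 24.2 and 24.6 FPM, against 5.33 and 1.55 FPM in IL10- Treg cells and at most 1.76 and 5.35 FPM in the background. Upstream, tiles at -27.6 kb (23.6 and 25.3 FPM) and -23.6 kb (39.2 and 34.1 FPM) were the 2 shared with Th17 cells, which had 8.04 and 8.12 FPM and 21.8 and 18.8 FPM. The most open tile of the locus, at -26.1 kb, was not called: 52.9 and 43.6 FPM in IL-10+ Treg cells, 29.4 and 31.3 FPM in the mean of the background and 46.8 and 54.8 FPM in Mucosal Th1 cells. Downstream, a tile at +18.4 kb held 36.3 and 34.1 FPM with 16.7 and 12.1 FPM in IL10- Treg cells.

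**Figure D4:**
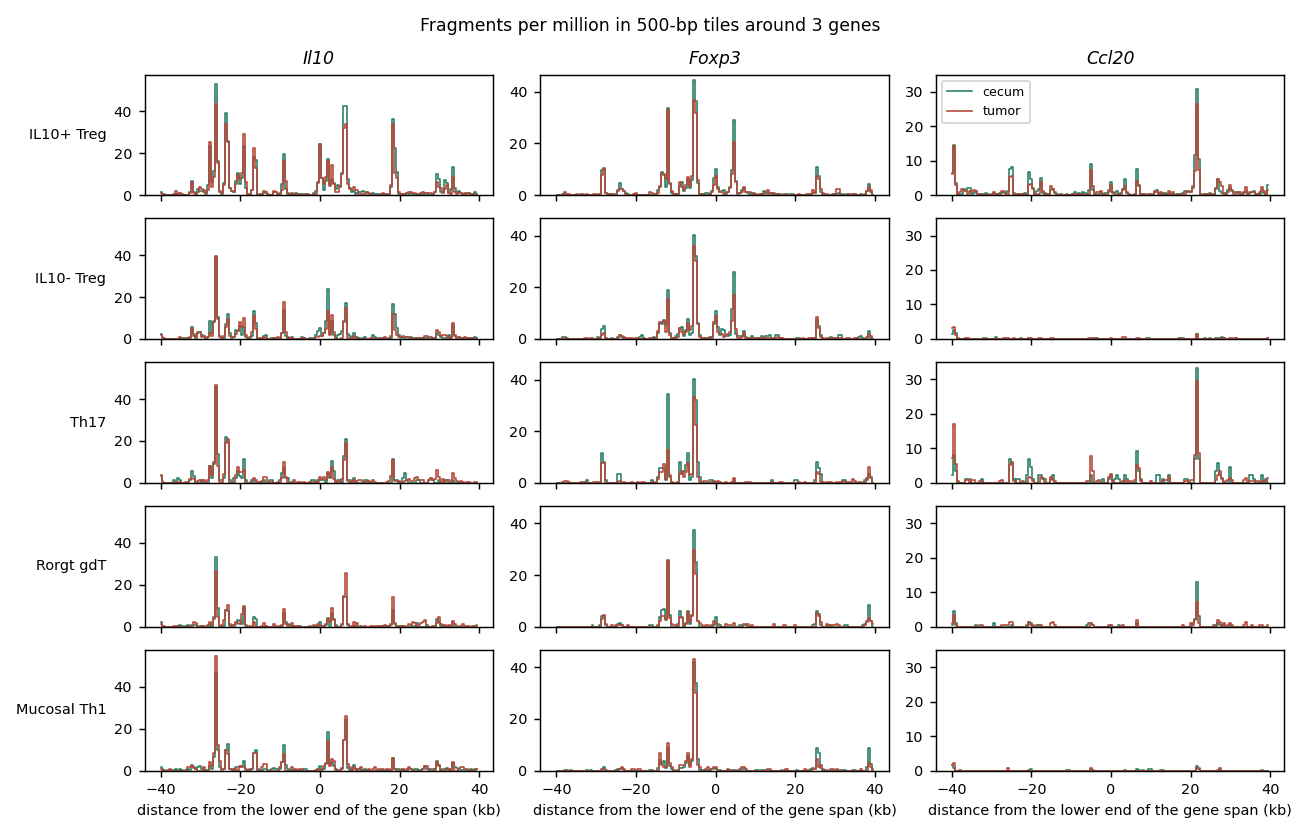
ATAC fragments (FPM per 500-bp tile, y axes) against distance from the lower end of the gene span (kb, x axes) around Il10, Foxp3 and Ccl20 in 5 labels (rows), cecum in green and tumor in red. IL-10+ Treg cells have the tile at the Il10 start (24.2 and 24.6 FPM), the tile inside Foxp3 at 4.6 kb that only IL10- Treg cells share among these labels, and the tile at 21.5 kb on the Ccl20 axis (19.1 kb from the nearer end of the gene) that Th17 and, lower, Rorgt gdT cells share.

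The neighbourhood of Maf was described over a wider window, 750 kb to each side against 50 kb at the other genes. Within 750 kb of Maf (chr8:115703253-115706894) 23 of 66 tiles were called, of which 18 lay inside Wwox, the gene next to it, and Wwox was the nearest gene of 22 called tiles, more than any other. Of the 23 tiles 10 were shared with Th17, 6 with IL10- Treg, 4 with Rorgt gdT and 3 with Mucosal Th1 cells. The tile at chr8:115117501-115118000, 585.5 kb from Maf, was open in IL-10+ Treg cells at 30.5 and 28.2 FPM, with 10.3 and 4.27 FPM in Th17 cells, which shared it, and 2.33 and 0.689 FPM in IL10- Treg cells. Closer to Maf, a tile at -291.5 kb was most open in Rorgt gdT cells, with 22.2 and 22.6 FPM there, 10.9 and 12.5 FPM in IL-10+ Treg cells and 7.33 and 6.89 FPM in IL10- Treg cells. Of the 3 shared with Mucosal Th1 cells the strongest, chr8:114977501-114978000, held 67.8 and 53.2 FPM in IL-10+ Treg and 24.5 and 19.3 FPM in Mucosal Th1 cells, with a background label at 26.7 FPM in the cecum. Which gene a distant tile acts on cannot be read from these data.

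At the type 17 genes the called tiles were called in Th17 cells too. All 3 at Il17a were called in both type 17 labels, and the tile at its start held 11.2 and 5.13 FPM in IL-10+ Treg cells, 42.5 and 34.2 FPM in Th17 cells and 20.8 and 40.5 FPM in Rorgt gdT cells. The pair 28.8 and 29.3 kb beyond it reached 19.97 and 16.5 FPM in the first tile. At Il23r IL-10+ Treg cells shared 1 tile of the 5 called in Th17 cells, that at the start (6.13 and 10.3 FPM). The tile 60.3 kb from the lower end of the gene, open in Th17 cells at 43.6 and 20.1 FPM, had 7.88 and 3.67 FPM. All 4 around Ccr6 were called in Th17 cells and 3 of them in IL10- Treg cells.

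Fragments in Treg and type 17 windows were also counted cell by cell. Each cell was thinned to 3000 fragments, which left 595 of 996 from the cecum and 283 of 387 from the tumor, and fragments were summed over the 26 genes shared with IL10- Treg cells alone and over the 37 shared with the type 17 labels alone. IL-10+ Treg cells had a mean of 4.98 fragments in the first set in cecum and 5.34 in tumor tissue, near IL10- Treg cells (5.31 in both) and above Th17 cells (2.40 and 2.19). In the second set they had 6.51 and 6.84, between IL10- Treg cells (3.74 and 4.29) and Th17 cells (7.46 and 7.19). At least 1 fragment in both sets was found in 96.1% of cells in either library. IL10- Treg cells had 94.1 and 97.4%, Th17 cells 90.5 and 84.7%, Rorgt gdT cells 81.2 and 89.8%, and the background labels from 49.4 to 84.5% in cecum and from 51.9 to 85.1% in tumor tissue. At these means nearly every cell has a fragment in each set by itself (97.3 and 98.7% of IL-10+ Treg cells in the cecum), so the share does not show whether both kinds of window are open in the same cell. The sets were chosen on the sums of these same cells, so these are descriptions.

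Measured over all genes, IL10- Treg cells were the label most like IL-10+ Treg cells. With every label thinned to the same number of fragments (426832 in cecum and 438981 in tumor tissue), 1752 and 1595 genes differed at least 2-fold from IL10- Treg cells, 1853 and 1700 from Th17 cells, and 1853 and 1785 from Mucosal Th1 cells. Rorgt gdT cells, with 2101 and 1999, were only at place 7 and 8 of 15, and CCR7+ CD4 cells the farthest with 2570 and 2497. The median absolute log2 ratio was 0.330 and 0.325 for IL10- Treg cells and 0.391 and 0.385 for CCR7+ CD4 cells. By this median Mucosal Th1 cells (0.337 and 0.332) were nearer than Th17 cells (0.346 and 0.334). Thinned counts are low, and the part of counting error in the 2-fold counts was not tested. No replicate gives the spread of these counts.

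Between gut and tumor these cells differed at few genes. Of 14307 genes with at least 50 fragments over both libraries 50 (0.349%) were called higher in the tumor and 18 (0.126%) lower, at a log2 ratio beyond 1. These counts depend on the settings, with 12 and 1 when 5 FPM were added, 3 and 0 with at least 200 fragments, 282 and 171 with no minimum, and 13 higher within 1 kb of gene starts. In 12 other labels with at least 100 cells in each library 16 to 95 genes were higher and 3 to 61 lower, though the number depends on the depth of a label. The marker genes were close between the tissues: the log2 ratio of tumor to cecum was -0.08 for Il10 (interval -0.25 to 0.10), 0.15 for Maf (-0.03 to 0.33) and -0.24 for Ctla4 (-0.42 to -0.06). Foxp3 was lower in the tumor, at -0.36 (-0.59 to -0.13), and its ratio in the other labels ranged from -0.70 to 0.16 with a median of -0.32. Il17a was lower too, at -0.75 (-1.36 to -0.26), from 23.5 to 13.6 FPM. Il1rn was higher at 0.90 (0.51 to 1.35), and Adam12 at 0.61 (0.37 to 0.86).

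The called genes were ranked by the interval bound nearest 0 and not by the ratio. Meox1, a homeobox gene, led at 7.71 FPM in cecum and 25.7 FPM in tumor tissue (44 and 70 fragments, log2 ratio 1.61, interval 1.17 to 2.31). In 10 other labels its ratio ran from -0.67 to 1.42. Within 1 kb of its start alone the ratio was -0.32. Dpt, a matrix protein gene, followed with 3.85 and 13.9 FPM (1.62, 1.06 to 2.68), Mefv, the gene of the inflammasome protein pyrin, with 3.85 and 13.2 FPM (1.55, 0.97 to 2.61), and Fbln5 with 5.08 and 15.8 FPM (1.46, 0.92 to 2.37). Syt14, with 7.53 and 23.1 FPM, owed 44 of its 63 tumor fragments to a single cell, and without that cell its ratio was -0.01. Klrg1, a receptor of effector cells and of Helios+ Treg cells, was among the 50, at 11.7 and 26.4 FPM (1.11, 0.67 to 1.67), and so was Ccl5 at 7.53 and 18.0 FPM (1.15, 0.63 to 1.88). Both were chosen here because they are members of the lists above. In IL10- Treg cells Klrg1 had 72.6 and 68.9 FPM. Mybph and its neighbour Adora1 were called higher both against the background labels and in the tumor (1.15 and 1.054), and in IL10- Treg cells their ratios were 1.32 and 1.38.

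The genes lower in the tumor rested on few fragments there, a median of 12.5 over the 18. Gabrg3, a subunit of a GABA receptor, went from 22.9 to 7.70 FPM (-1.46, -2.32 to -0.90), but 84 of its 131 cecum fragments came from a single cell and the ratio without it was -0.28. Gpr62 went from 16.5 to 5.87 FPM (-1.35, -2.35 to -0.72), Myt1l from 8.41 to 2.20 FPM (-1.56, -3.45 to -0.71, and 0.45 within 1 kb of its start), Sgcz from 21.9 to 9.53 FPM (-1.12, -1.87 to -0.58) and Lcn4 from 22.1 to 9.90 FPM (-1.08, -1.81 to -0.55). Leaving out the cell with the most fragments in each window, chosen after seeing these, kept 43 of the 50 higher, 17 of the 18 lower and 128 of the 142 genes called against the background. Without the cells of over 3 times the median number of fragments 26 of the 50 and 10 of the 18 were still called.

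**Figure D5:**
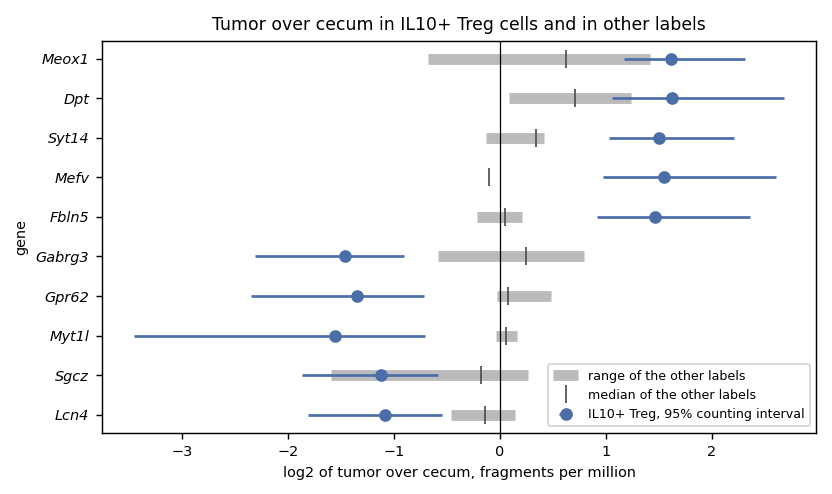
Log2 ratio of tumor to cecum (x axis) for the 5 genes ranked highest and the 5 ranked lowest in IL-10+ Treg cells (blue, bars are exact 95% counting intervals), with the range (grey) and median (tick) of the same ratio in the other labels that had enough fragments. Meox1 (1.61) and Dpt (1.62) lie at the upper end, and Syt14 (1.498) and Gabrg3 (-1.46) each rest mainly on 1 cell. Points include the added 1 FPM, and the bars are intervals of the ratio without it.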

How the data were processed

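T cells sorted from 1 AKP tumor sample and 1 adjacent cecum sample were profiled by 10x multiome. Per the file headers and the submitters' processing notes, the authors ran Cell Ranger ARC 2.0.0 with the mm10 reference, and the deposited fragment lists give each unique fragment with its barcode and a count of its read pairs. Every fragment counted as 1, whatever its number of reads, in each window that held either of its ends. Cell labels were those of the authors, set from RNA clusters of the same nuclei after their filters on cells. Doublets were not called here. Of the labelled barcodes 84 occurred in both libraries, and 0 of them were IL10+ Treg in both.

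Fragments were summed by label and library over 21888 gene spans with 5 kb on either side and over 500-bp tiles, and scaled to 1000000 fragments of the label (FPM). Genes under a mean of 5 FPM and tiles under 2 FPM were not described. Both means included IL-10+ Treg cells. Log2 ratios had 1 FPM added. The background was the mean of 11 labels, and PD1+ CD4 cells were left out, with under 50 cells in a library. Genes were called at a log2 ratio of 1 and tiles at 1.5, in both libraries. Tumor to cecum ratios took genes with 50 fragments or more. Labels of 100 or more cells per library were set beside them. Each tissue had 1 library, so no significance test was made. Intervals are exact Poisson, binomial or conditional intervals. The tumor to cecum intervals are for the ratio with nothing added. Gene spans and promoters came from RefSeq tables of GRCm38.p6, the build of mm10, and no genome was used, so sequences of tiles were not read.

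The members and lists were chosen with earlier results of these data known. Genes were named by rule: the 4 markers, the 10 highest and 5 lowest by the smaller ratio of the libraries, 5 shared per label, 5 highest relative to the next label, 5 higher and 5 lower in the tumor by the bound nearest 0, and list members that were called or, up to 4 a list, came first in it. Tiles were the 10 highest and 3 shared per label. Some genes that the rule names are not reported here. Ccl20, Tnfrsf13b, Fmnl2 and the loci and start sites described were named after their values were seen. Alternatives were the window, added FPM, minimum level, cells, scaling and form of the background. The work was done in Python 3.11.15 with scipy 1.17.1, numba 0.67.0, pandas 2.3.3, numpy 2.4.6, matplotlib 3.10.9 and pyarrow 21.0.0. The counting and calling steps were tested on simulated data.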

Additional observations from a re-analysis of the deposited data

How the results depend on the processing

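Calls rest on 1 library per tissue and on fold, so depth limits them. The smallest compared labels of the cecum were newly activated CD4 (77 cells), Th2 (90 cells) and CCR7+ CD4 (125 cells), all background labels. Th17 cells followed with 131 cells. No paired analysis was possible because each tissue had 1 library and no result came from a test. Counts stayed within 1.5 times of the reported value with cells of at least 1000 fragments, with cells of at most 3 times the median, with scaling by fragments near gene starts, with no minimum level and with 1000-bp tiles. With only the 1 kb around gene starts counted, 54 genes were higher and 174 lower, 22 were shared with Th17, 26 with Rorgt gdT and 22 with IL10- Treg cells, 1 was highest, and 13 were higher in the tumor. Adding 5 FPM left 229 lower genes, 1 shared with Mucosal Th1 and 45 with IL10- Treg cells, and 12 higher and 1 lower in the tumor. Against the background as pooled cells 12 genes were shared with Mucosal Th1 cells, and the shared tiles were 643 for Th17, 479 for Rorgt gdT, 90 for Mucosal Th1 and 665 for IL10- Treg cells.

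Against the 4 CD4 labels, an alternative chosen after seeing the data, 271 genes were lower, 12 were shared with Mucosal Th1 cells, and 221 and 215 tiles with Th17 and IL10- Treg cells. There 123 genes were higher, 80 of them among the 142, and Il17a and Maf were not called. With at least 200 fragments 3 genes were higher and 0 lower in the tumor, and with no minimum 282 and 171. Tiles of at least 5 FPM numbered 314, shared with Th17 (124), Rorgt gdT (99), Mucosal Th1 (7) and IL10- Treg cells (133). With 3 FPM added they numbered 421, with 119, 101, 1 and 126 shared. In the 1 kb windows 34 of 120 ratios of named genes stayed within their counting interval. Another 79 moved outside it and 7 turned in sign, with turns counted only at ratios of at least 1 in size. In all, 110 kept their sign. The sign turned in the 1 kb windows for Cc2d2a (-0.33, cecum), Adora1 (-0.10, tumor), Tspan11 (0.24, cecum) and Nyap2 (-0.25, tumor), and for the tumor to cecum ratio of Meox1 (-0.32), Syt14 (-0.078) and Myt1l (0.45). Syt14 turned as well without the cells of high count (-0.077). The cause was not tested, apart from the single cell that holds most Syt14 fragments.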
